A study of Mus musculus with 15 samples.

Results

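Parvalbumin (Pv) neurons are inhibitory interneurons of the cerebral cortex, and the 4 untreated control libraries (Ctrl 1 to 4) of a series of 15 hold their baseline nuclear RNA. The members are the 4 libraries whose titles name them Ctrl, and no other group was used. Each library came from the frozen cortex of 1 adult mouse of the genotype PvCre ROSA-tomato-lox Thra+/+, untreated and with wild-type alleles of Thra, which encodes the alpha receptor of thyroid hormone. A Cre recombinase expressed in Pv neurons switched on a fluorescent protein in the nucleus, and fluorescent nuclei were sorted before RNA extraction, amplification and sequencing. The label therefore follows the activity of the Cre driver, recombination is permanent once it has happened, and the labels give neither the sex of the mice nor the number of nuclei. The profile is that of nuclear RNA, so RNA of the cytoplasm, of axons and of synapses lies outside the measurement.

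Pv neurons fire brief action potentials at high and sustained rates and release GABA on the cell bodies and axon initial segments of their targets. Fast repolarisation rests on Kv3 potassium channels, rapid excitation on AMPA receptors, and fast release on synaptotagmin-2. Many of these cells carry a perineuronal net of extracellular matrix and have a high energy demand, and in development they arise from the medial ganglionic eminence under the transcription factors Nkx2-1, Lhx6 and Sox6.

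The libraries held 24447711, 23786090, 25102472 and 25377904 counts, over 21783 to 22577 genes with a count. Levels are given as counts per 1000000 counts of a library (CPM), and levels of different genes are compared as CPM per kb of exon. Values after ± are SDs over the 4 libraries, that is over 4 mice, and "under 1 CPM" refers to the mean of the 4. A gene was called detected at 1 CPM or more in every library, which 13727 of 48321 genes were (28.4%). Of 20509 protein-coding genes that do not lie inside another gene, 11743 were detected (57.3%), and counts of list members below are read against that share. There was 1 group and hence no test between groups.

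The way reads were assigned limits which genes can be read. Of 1140 protein-coding genes that lie inside the span of another gene, introns included, 1106 (97.0%) were at exactly 0 in every library, against 3479 of 20509 (17.0%) of the others. This held on the same strand (186 of 188 genes without a shared exon) and on the opposite strand (431 of 442). Reads therefore appear to have been counted over whole gene spans, without regard to strand, and dropped where spans overlap. A 0 for such a gene says nothing of its expression, and Dlx1, Dlx6, Nefl, Cox6a2, Scn2b, Kcna3, Gfap, Sstr2, P2ry12, Tubb3 and Xist are among them. They are called not countable below. For a gene that overlaps another only in part, only the exonic bases outside the other gene's span appear to have been counted, and the share of such bases is named where it is under 50%. Introns thus appear to add to the counts. Detected protein-coding genes that span over 100 kb held 35.7% of the counts of such genes, with 29.4% of their exonic bases and 66.9% of their span, so that long genes can rank higher per kb of exon than per kb of span. The median level of detected protein-coding genes was 0.855 CPM per kb where at most 10% of their exonic bases lay outside other genes and 8.68 CPM per kb where 90% or more did.

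The sort was defined by activity of the Pvalb gene, and the start regions of Pvalb and of the marker genes with the highest counts, Gad1 and Kcnc1, are shown to set them beside the expression data. Each sequence runs from 250 bases before to 50 bases after an annotated transcription start, 5′ to 3′ on the gene's strand (RefSeq, GRCm38.p6). Capitals mark matches, on either strand, to the TATA box (TATAAA), an E-box (CACGTG), the cyclic AMP response element (TGACGTCA), the MEF2 motif (CTANNNNTAG), the GC box (GGGCGG) or the CCAAT box (CCAAT).
Pvalb, chr15:78206351-78206650, minus strand: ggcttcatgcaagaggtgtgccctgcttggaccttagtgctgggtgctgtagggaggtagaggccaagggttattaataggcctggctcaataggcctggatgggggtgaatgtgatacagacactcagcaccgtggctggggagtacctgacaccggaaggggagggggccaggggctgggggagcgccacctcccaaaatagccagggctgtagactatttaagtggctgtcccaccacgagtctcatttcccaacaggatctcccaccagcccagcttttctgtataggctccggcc
Gad1, chr2:70561879-70562178, plus strand: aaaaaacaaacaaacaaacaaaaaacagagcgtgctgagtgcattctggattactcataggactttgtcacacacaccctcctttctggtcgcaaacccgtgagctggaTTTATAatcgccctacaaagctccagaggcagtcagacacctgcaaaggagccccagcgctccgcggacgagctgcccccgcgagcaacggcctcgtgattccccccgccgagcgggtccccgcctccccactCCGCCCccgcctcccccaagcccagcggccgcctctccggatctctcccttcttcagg
Kcnc1, chr7:46396218-46396517, plus strand: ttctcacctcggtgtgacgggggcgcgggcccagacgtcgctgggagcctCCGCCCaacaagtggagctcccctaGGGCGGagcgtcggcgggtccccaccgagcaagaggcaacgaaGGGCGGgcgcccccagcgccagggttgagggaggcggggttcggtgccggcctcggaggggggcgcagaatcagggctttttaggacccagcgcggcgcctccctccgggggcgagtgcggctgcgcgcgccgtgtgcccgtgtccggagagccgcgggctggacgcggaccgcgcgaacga

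The window at Pvalb held 5 CpG dinucleotides and no exact match to any of the 6 motifs, and near matches were not searched. That at Gad1 held 21 CpGs, a match to the TATA box string and a GC box match, each on the minus strand relative to the gene. These matches began at -141 and -8 from the annotated start, and whether they act was not tested. That at Kcnc1 held 41 CpGs and 3 matches to the GC box. Over 19263 windows of the same length, 1 for each gene, the GC box was present in 44.6%, the CCAAT box in 38.4%, the TATA box in 12.9%, the E-box in 7.77%, the MEF2 motif in 3.54% and the cyclic AMP response element in 2.29%. CpG content went with detection across genes. Among 15683 protein-coding genes outside other genes that have such a window, 14.0% of 4223 genes with 0 to 4 CpGs were detected, 41.6% of 2053 with 5 to 9, 75.7% of 3401 with 10 to 19, 85.3% of 3512 with 20 to 29 and 90.9% of 2494 with 30 or more. The median level of the detected genes rose over the same classes from 3.58 to 10.05 CPM per kb of exon. Pvalb falls in the class of 5 to 9 CpGs, whose detected genes had a median of 5.00 CPM per kb, and stood at 114 ± 11.01 CPM per kb. These are descriptions across genes, which share the 4 libraries.

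All 5 genes that mark the sorted cells were detected. Gad1, which encodes the main GABA-synthesising enzyme, had 1024, 1435, 1513 and 1639.9 CPM in Ctrl 1 to 4, and Kcnc1, which encodes the Kv3.1 channel, had 1047, 1286, 1215 and 1249.8 CPM. Syt2, the gene of synaptotagmin-2, had 311, 421, 496 and 528 CPM, and Gad2, the second GABA-synthesising enzyme, had 210.5, 228, 292 and 294 CPM. Pvalb, the calcium buffer that names the cells, had 110.2, 136, 118 and 113 CPM. Ctrl 1 was the lowest library for each of these 5 genes. In bulk RNA of sorted nuclei, fewer cells of a type and less RNA per cell cannot be told apart. The summed level of the 5 genes was 2703, 3506, 3633 and 3826 CPM (3417 ± 494). Per kb of exon the order was Gad1 at 184 ± 34.9, Kcnc1 at 127 ± 11.2, Pvalb at 114 ± 11.01, Syt2 at 57.5 ± 12.6 and Gad2 at 43.6 ± 7.35. Each stood above the next in all 4 libraries, although the ranges overlapped for Gad1 and Kcnc1, for Kcnc1 and Pvalb, and for Syt2 and Gad2. Of 48 further genes that are known for Pv neurons, 2 were not countable (Nefl and Cox6a2) and the other 46 were detected. High levels per kb among them were those of the release regulator Cplx1 at 278 ± 38.7, the neuregulin receptor Erbb4 at 274 ± 86.6, the Kv3.2 channel Kcnc2 at 185 ± 30.8 and the proteoglycan Bcan at 171 ± 17.9.

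**Figure D1:**
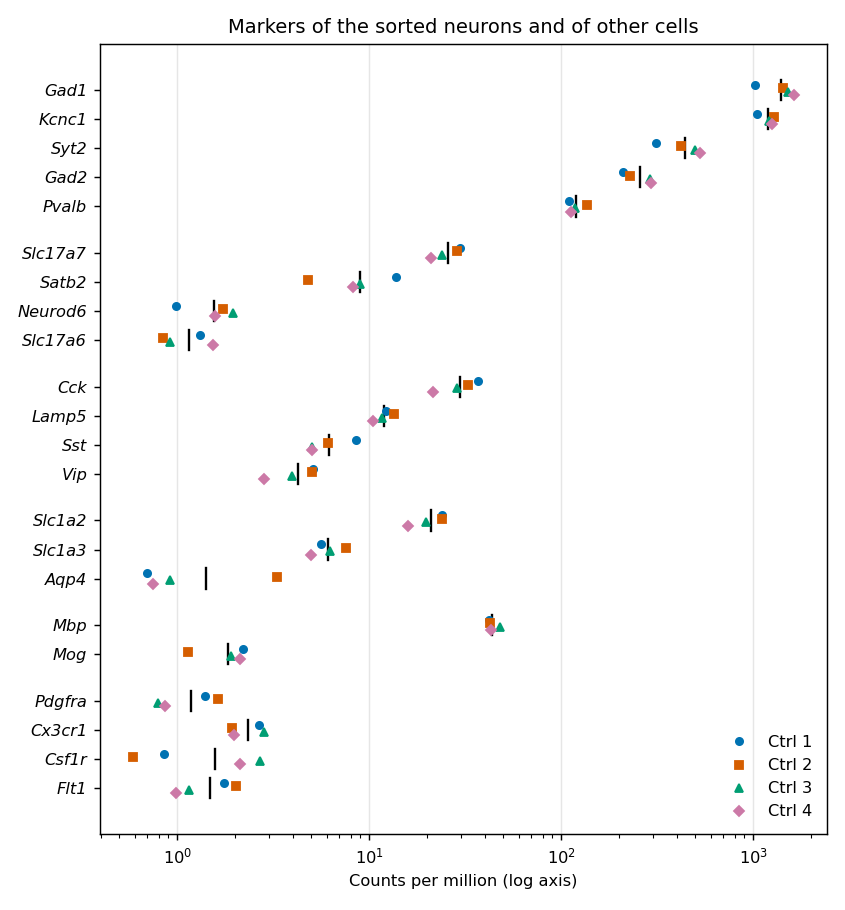
CPM (log axis) of the 5 markers of the sorted neurons (top) and of defining markers of glutamatergic neurons, other interneurons, astrocytes, oligodendrocytes and, in the last block, oligodendrocyte precursors, microglia and vessels. Points are the 4 Ctrl libraries and black ticks their means; the lowest Pv marker value is 110.2 CPM (Pvalb in Ctrl 1) and the highest value of the other genes is 47.8 CPM (Mbp in Ctrl 3).

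Markers of other cortical cells were low but present. Of 104 such genes, 6 were not countable and 50 of the other 98 were detected (51.0%). The summed level was 1681, 1657, 1629 and 1633 CPM (1650 ± 24.3). The highest members were Slc4a4, a bicarbonate cotransporter listed for astrocytes (375 CPM), the kinase gene Camk2a (185 CPM) and the homeobox gene Cux2 (129 CPM). Slc17a7, the vesicular glutamate transporter of cortical excitatory neurons, had 29.9, 28.8, 23.9 and 20.9 CPM, and Neurod6 had 0.982, 1.72, 1.95 and 1.58 CPM. The interneuron peptide genes Npy, Cck, Sst and Vip had 52.000 ± 14.2, 29.8 ± 6.495, 6.17 ± 1.64 and 4.24 ± 1.07 CPM, and per kb of exon Npy (91.9 ± 25.02) was the highest of these 104 genes. Among glial genes, Slc1a2 had 20.9 ± 3.86 CPM, Aqp4 1.42 ± 1.27, Mbp 43.9 ± 2.64, Mog 1.85 ± 0.4902 and Cx3cr1 2.35 ± 0.462. The summed level was 591 to 642 CPM for the excitatory neuron list, 223 to 249 for other interneurons, 442 to 517 for astrocytes, 181 to 214 for oligodendrocytes, 4.54 to 7.27 for their precursors, 83.5 to 103 for microglia and 15.4 to 30.1 for vessels. Neurog2, Sncg and Col1a1 were countable and at 0 in every library. Without the highest member of each list the sum was 897 CPM. The source of these counts was not tested.

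Counts were spread over many genes. The 100 most abundant genes took 17.7, 15.1, 14.7 and 14.4% of the counts of Ctrl 1 to 4 (15.47 ± 1.52), and 1252 genes made up 50% of all counts. Protein-coding genes held 93.2 to 93.9%, and genes typed as long intergenic noncoding RNAs, the model Gm26917 among them, 3.19 to 3.90%. The mitochondrial genome held 20.1 to 31.1 CPM, with 5 of 15 genes detected. Rn18s-rs5, a copy of an 18S ribosomal RNA sequence whose reads cannot be told from those of other copies, had 2308, 2330.4, 1994 and 1907 CPM.

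The leading transcript was Snhg11 (chr2:158375638.0-158386145.0, GRCm38), a host gene of small nucleolar RNAs that the annotation types as protein-coding, with 13658, 16695, 14066 and 15172 CPM. It was followed by Gm26917 at 11836 ± 2083 CPM, the imprinted noncoding RNA Meg3 at 10621 ± 651 CPM and the speckle-associated RNA Malat1 at 4520.2 ± 706 CPM. Gm26917 is a predicted model that the annotation types as a long intergenic noncoding RNA, and the origin of its reads was not tested. Erbb4 (chr1:68032186.0-69108059.0), which marks cortical interneurons, was the fifth gene, with 4989.8, 2756, 2931 and 2876 CPM, and Ctrl 1 lay far above the other libraries. Rsrp1, which encodes a small protein rich in arginine and serine, had 2563, 4109, 3358 and 3232 CPM, with Ctrl 1 the lowest. Most of the next genes encode proteins of the cell surface and the synapse. They were the adhesion genes Nrxn3 (2639 ± 1059 CPM), Lsamp (3987, 1926, 2149.7 and 1919.9), Cntnap2 (1814 ± 681), Lrrc4c (1638 ± 612) and Opcml (1575 ± 473), and the scaffold genes Dlgap1 (2364 ± 588) and Dlg2 (1621 ± 455). Nrg3, which encodes a ligand of Erbb4, had 1567 ± 648 CPM. Syt1, the calcium sensor of vesicle release, had 2316, 1407, 1945 and 1726 CPM. Ndrg4 (1678 ± 313 CPM) and the AMPA receptor subunit Gria2 (1573 ± 132 CPM) were also among the leading 20.

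**Figure D2:**
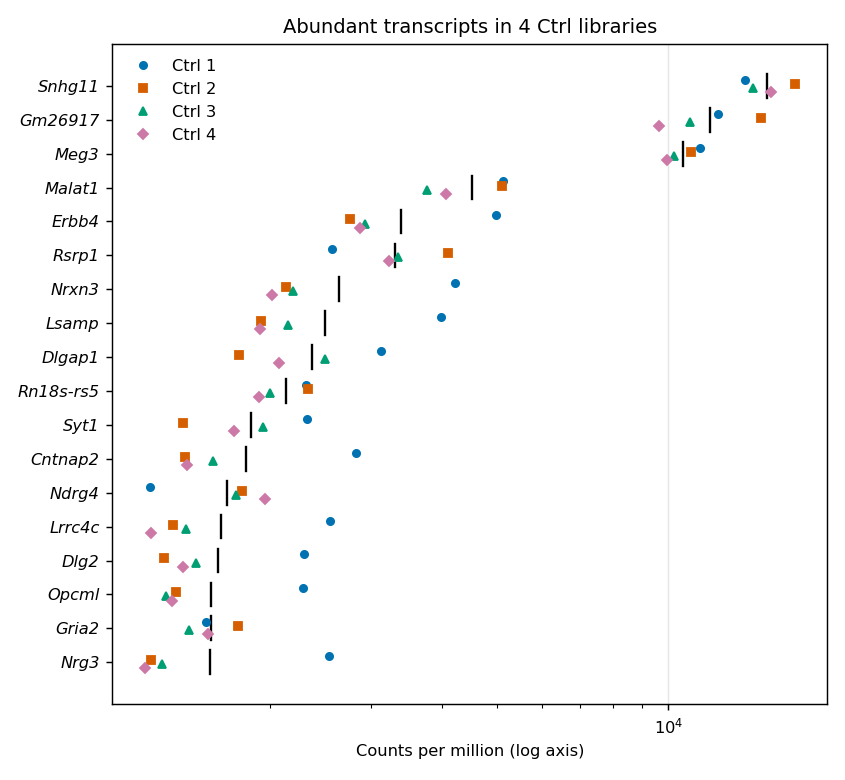
CPM (log axis) of genes named here from the 20 with the highest mean CPM, with points for the 4 Ctrl libraries and black ticks for the means. Ctrl 1 (circles) is the highest library for the long genes Erbb4, Nrxn3, Lsamp, Cntnap2 and Nrg3 and the lowest for Rsrp1 and Ndrg4.

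Ranking by exon length brought shorter genes forward. The ranking covers protein-coding genes with at least 500 exonic bases, of which under 10% are shared with another gene. After Snhg11 (1748 ± 159 CPM per kb) and Rsrp1 (990.0 ± 189), the leading genes included the tubulin regulator Stmn3 (364 ± 46.7), Lrrc4c (354 ± 132), Ndrg4 (343 ± 64.05), lactate dehydrogenase B (Ldhb, 339 ± 47.5), the splicing regulator Rbfox1 (333 ± 140.2), Cplx1 (278 ± 38.7) and Erbb4 (274 ± 86.6). Genes of energy supply were among the next. The brain creatine kinase Ckb stood at 267 ± 45.7, the mitochondrial phosphate carrier Slc25a3 at 234 ± 34.7 and the cytosolic malate dehydrogenase Mdh1 at 232 ± 19.4 CPM per kb. The splicing factor Srsf5 (237 ± 26.8), Dlgap2 (228 ± 50.8), Nrg3 (229.9 ± 95.1), Pcdh9 (228 ± 77.8), Cntn5 (224 ± 63.4) and Syt1 (222 ± 45.9) were also among the leading 20, as was Kcnip4, of whose exonic bases 43.1% could be counted (254 ± 167). For comparison, the median detected protein-coding gene had 38.5 CPM and 8.23 CPM per kb, and the 99th percentile was 103 CPM per kb.

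Potassium channel genes were represented by 51 of 75 countable pore-forming subunits (68.0%), with a summed level of 10391, 8657, 9495 and 9537 CPM (9520 ± 708). The Kv3 family, which gives fast repolarisation, had the highest summed level of the 9 families, at 2480 to 2746 CPM. Kcnc2 (chr10:112271121.0-112467024.0) had 223, 147, 185 and 186 CPM per kb in the 4 libraries and Kcnc1 111, 136, 128 and 132, so that Kcnc2 stood above Kcnc1 in every library without overlap of the ranges. Kcnc4 was near the limit of detection at 0.774 ± 0.295. The order of the first 2 members turns to Kcnc1 before Kcnc2 when counts are divided by the gene's span.

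Among Kv1 channels, which set the threshold of firing, Kcna1 (Kv1.1) had 64.1, 80.7, 107 and 97.7 CPM per kb and Kcna2 (Kv1.2) 30.2, 37.7, 47.3 and 50.9. Their ranges did not overlap, and Ctrl 1 was the lowest library for both. Kcna4 was at 0.406 ± 0.259 CPM per kb, Kcna5, Kcna7 and Kcna10 lay under 1 CPM, Kcna3 was not countable, and Kcna6 was counted over 6.38% of its exonic bases (8.31 CPM). The Kv1 beta subunits Kcnab3 (82.05 ± 15.1), Kcnab2 (36.5 ± 6.46) and Kcnab1 (23.6 ± 3.87) were all detected. In the Kv2 group the silent subunit Kcns3 was the highest member, at 55.8, 56.3, 62.4 and 63.02 CPM per kb, ahead of the silent subunits Kcns1 (22.3 ± 6.58) and Kcng4 (16.2 ± 3.57). The Kv2 pore-former Kcnb2 (3.96 ± 1.93) was lower than these 3 silent subunits in each library. Of the Kv4 channels, Kcnd2 had 95.5, 55.5, 45.6 and 40.8 CPM per kb, with Ctrl 1 above the rest, and Kcnd1 and Kcnd3 had 3.28 ± 0.914 and 1.25 ± 0.138. The Kv4 partners Kcnip2 (87.3 ± 5.72), Kcnip1 (60.7 ± 5.25) and Dpp6 (41.05 ± 6.64) were each above 30 CPM per kb in every library.

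All 5 Kv7 genes, the family of the M-current, were detected. Kcnq3 had 27.98 ± 6.603 CPM per kb and Kcnq5 21.6 ± 8.52. The ERG-type channel Kcnh7 led its family at 55.97 ± 21.1. Kcnma1, the large-conductance calcium-activated channel, had 75.8 ± 12.99, its partner Kcnmb2 79.2 ± 27.7, the sodium-activated channel Kcnt1 38.04 ± 6.71 and the small-conductance channel Kcnn2 17.7 ± 0.777, whereas Kcnn3 and Kcnn4 lay under 1 CPM. Of the G protein-gated inward rectifiers, Kcnj3 (62.8 ± 17.8), Kcnj9 (43.9 ± 9.51) and Kcnj6 (16.4 ± 3.29) were detected, and Kcnj5 was at 0.03004 CPM. The glial rectifiers Kcnj10 and Kcnj16 were under 1 CPM, at 0.801 and 0.451. Of the leak channels of the K2P family, Kcnk1 led with 63.7, 83.97, 79.05 and 79.97 CPM per kb, before Kcnk3 (31.8 ± 4.74) and Kcnk12 (26.2 ± 4.57), and 7 of 14 members were under 1 CPM, Kcnk9 and Kcnk18 included.

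**Figure D3:**
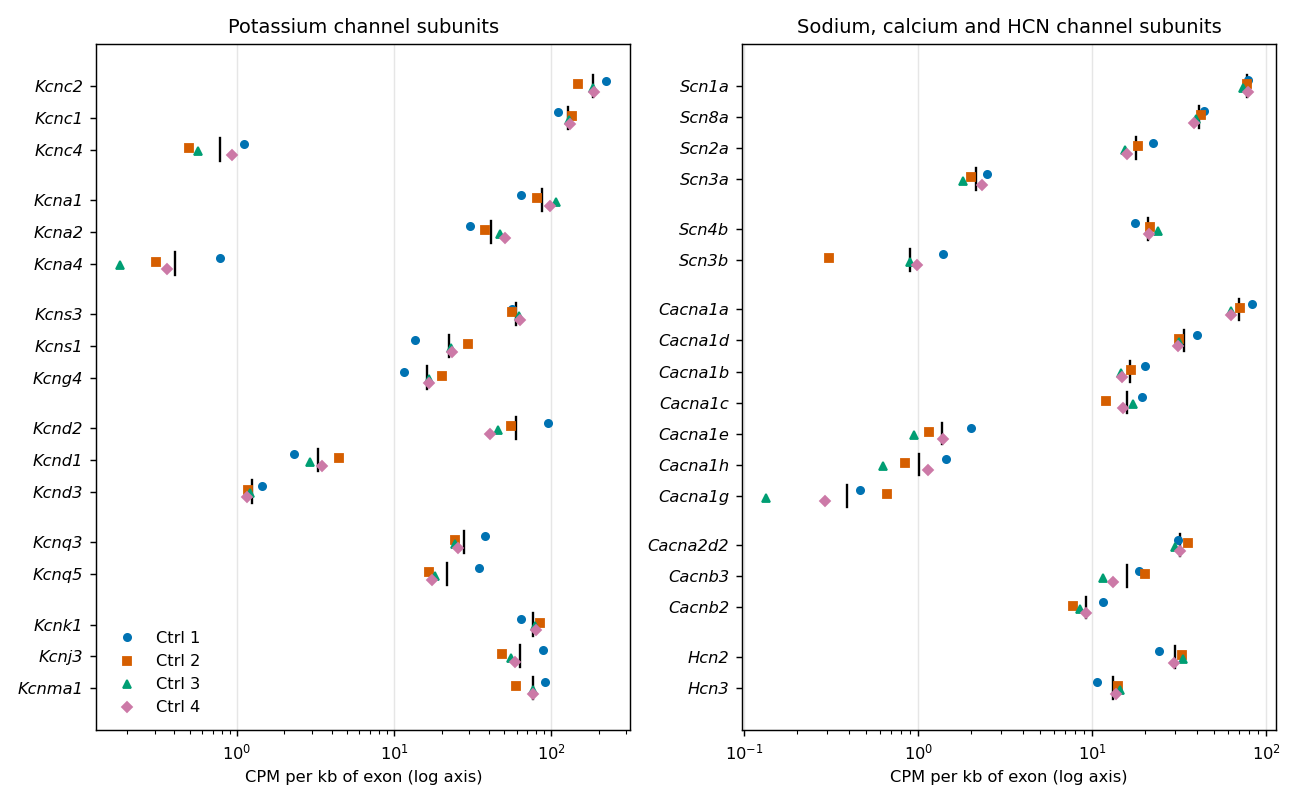
CPM per kb of exon (log axes) of potassium channel subunits (left) and of sodium, calcium and HCN channel subunits (right); points are the 4 Ctrl libraries, ticks their means, and gaps divide families. Kcnc2 and Kcnc1 lie above 100 in every library, and Scn1a runs from 73.6 to 78.6.

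Sodium channel alpha subunits were detected for 7 of 11 genes. Scn1a (Nav1.1, chr2:66270778.0-66440840.0), whose loss of function causes Dravet syndrome, had 78.2, 77.3, 73.6 and 78.6 CPM per kb, a CV of 2.94%. Scn8a (Nav1.6) had 44.05, 41.9, 39.2 and 38.6 and Scn2a (Nav1.2) 22.3, 18.4, 15.3 and 15.8. The ranges of these 3 genes were separate, in that order. Scn3a was at 2.16 ± 0.3003, and Scn4a, Scn10a and Scn11a, known from muscle and sensory neurons, were under 1 CPM. The beta subunit Scn4b (21.001 ± 2.55) was detected, Scn3b was low (0.891 ± 0.442), and Scn2b was not countable.

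Calcium channels were led by Cacna1a (P/Q type, the main channel of release at Pv terminals) with 82.5, 70.6, 62.9 and 62.3 CPM per kb, followed by the L-type gene Cacna1d with 40.02, 31.3, 31.7 and 31.1. Their ranges did not overlap, and Ctrl 1 was the highest library for both. Cacna1b (N type, 16.6 ± 2.53) and Cacna1c (L type, 15.9 ± 3.15) could not be ordered. The T-type genes were lower: Cacna1i had 4.65 ± 0.7899, Cacna1h 1.01 ± 0.355 and Cacna1g 0.387 ± 0.227 CPM per kb. Cacna2d2 was the highest auxiliary subunit counted over most of its exons, at 31.9 ± 2.39, against 5.42 ± 1.29 for Cacna2d3 and 1.41 ± 0.386 for Cacna2d1; Cacnb4 had 329.8 CPM over 28.3% of its exonic bases. Of the HCN channels, which carry the hyperpolarisation-activated current, Hcn2 (24.3, 32.6, 33.3 and 29.6) and Hcn3 (10.7, 13.96, 14.3 and 13.6) did not overlap, and Hcn4 was at 0.313 CPM. Over sodium, calcium and HCN channels, 28 of 36 countable subunits were detected (77.8%), with a summed level of 5721 to 6618 CPM.

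The potassium-chloride cotransporter Slc12a5 (KCC2), which keeps chloride low in mature neurons, had 35.7, 41.9, 41.6 and 39.95 CPM per kb. Slc12a2 (NKCC1), which loads chloride, had 3.95, 4.07, 4.08 and 4.15, below Slc12a5 in every library, with a CV of 2.097%. The chloride channel genes Clcn7 (30.1 ± 6.38), Clcn4 (20.7 ± 3.32), Clcn2 (15.998 ± 3.94) and Clcn3 (14.3 ± 0.705) were detected. Of TRP channels 12 of 20 were detected, with Trpc4 at 25.1 ± 4.39.

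Subunits of ionotropic receptors were detected for 42 of 64 countable genes (65.6%), and their summed level was 11696 to 14386 CPM, highest in Ctrl 1. All 4 AMPA receptor genes were among the high ones. Gria1 had 212, 146, 207 and 194 CPM per kb and Gria4 225, 163, 175 and 168, each first in 2 of 4 libraries, so that no order could be given. Gria2, the subunit that blocks calcium entry through the receptor, had 99.3, 113, 92.6 and 100.1 and Gria3 91.5, 80.7, 85.1 and 76.7, without overlap with Gria4 above or with each other. By CPM, and by CPM per kb of span, Gria2 was the first of the 4. The auxiliary subunits Cacng2 (28.7 ± 3.86), Shisa9 (21.8 ± 6.18) and Gsg1l (15.5 ± 2.098) led a list of which 10 of 12 were detected. NMDA receptor genes were lower. Grin2a had 36.7 ± 8.07, the obligatory subunit Grin1 29.1 ± 3.35 and Grin2b 25.9 ± 4.36, with overlapping ranges for Grin2a and Grin1 and for Grin1 and Grin2b. Grin2d, a subunit known from interneurons, was at 4.88 ± 0.717, and Grin3b lay under 1 CPM. All 9 genes of kainate receptors, delta receptors and their auxiliary Neto proteins were detected, with Neto2 (65.1 ± 7.34), Grik2 (54.05 ± 14.7) and Grik1 (47.9 ± 9.52) highest.

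GABA-A receptor subunits were detected for 12 of 18 genes. Gabrd, the delta subunit of extrasynaptic receptors, had 136, 201, 152 and 166 CPM per kb and was the highest subunit in all 4 libraries. Gabrb2 had 84.7 ± 13.3, Gabrg3 74.9 ± 22.9 and Gabra4 33.5 ± 2.17. Gabra2 was far lower, at 2.03 ± 0.302. Gabra5 had 4.698 CPM with 12.3% of its exonic bases countable, so its level cannot be set beside the others. Gabra6, Gabre, Gabrp, Gabrq and Gabrr1 were under 1 CPM. Glrb, the beta subunit of glycine receptors, had 80.9 ± 5.99, whereas the alpha subunits Glra2 and Glra3 had 4.7997 ± 2.49 and 0.1099 ± 0.0645, and Glra1 was under 1 CPM. Nicotinic, 5-HT3 and P2X receptors were low as a list, with 9 of 22 detected and a highest member, Chrnb1, at 11.4 ± 1.7997 CPM per kb; Htr3a, a marker of other interneurons, was at 0.0296 CPM.

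The list of receptors coupled to G proteins also held auxiliary genes such as Kctd16 and Kctd8 and the peptide receptor genes Npr2 and Npr3. Of its countable genes, 74 of 120 were detected (61.7%), close to the 57.3% of all such coding genes. The GABA-B receptor subunits Gabbr2 (80.5 ± 10.05 CPM per kb) and Gabbr1 (21.8 ± 1.53) and their auxiliary genes Kctd16 (60.95 ± 28.8) and Kctd8 (29.4 ± 7.87) were detected. Kctd16 had its highest library in Ctrl 1, at 102, against 37.7 to 59.99 in the others. Among metabotropic glutamate receptors, Grm5 (75.7, 45.8, 59.8 and 54.1) stood above all others in each library, ahead of Grm7 (21.7 ± 6.001) and Grm3 (16.2 ± 3.49), and Grm6, a gene of the retina, was under 1 CPM. The delta opioid receptor Oprd1 had 38.9, 52.3, 62.7 and 53.7, above the nociceptin receptor Oprl1 (11.7 ± 1.52) without overlap. By CPM per kb of span, Oprl1 was the first of this list. The mu and kappa receptors Oprm1 (0.382 ± 0.193) and Oprk1 (0.203 CPM) were near or under the limit. Cnr1, the cannabinoid receptor known from Cck interneurons, was at 5.48 ± 0.673 CPM per kb.

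Of the receptors of modulatory transmitters, 4 of 5 muscarinic, 7 of 11 countable serotonin, 5 of 9 adrenergic, 2 of 5 dopamine and 3 of 8 adenosine and histamine receptor genes were detected. Drd1 was the only dopamine receptor above 1 CPM per kb, at 13.8, 13.3, 19.8 and 19.2, and Drd2 and Drd5 were under 1 CPM. Chrm3 (19.1 ± 5.87), Chrm2 (10.2 ± 1.57), Chrm1 (7.62 ± 2.26) and Chrm4 (6.13 ± 2.101) were detected and Chrm5 was at 0. Adra1a (18.6 ± 2.87) and Adrb1 (8.11 ± 1.39) led the adrenergic receptors, while Adra2a, Adra2b and Adra2c were under 1 CPM. Of serotonin receptors, Htr1f (17.6 ± 5.31) and Htr2a (8.19 ± 2.43) led, in that order in each library without overlap, whereas by CPM each was first in 2 of 4 libraries. Adora1 was at 5.45 ± 1.16 and Adora2a at 0. Neuropeptide receptors were mostly absent from the detected set, with 12 of 31 countable genes called. Adcyap1r1, the PACAP receptor (33.8 ± 4.55), and Cckbr (29.2 ± 6.698) were the highest, and their ranges overlapped. Oxtr, the oxytocin receptor, was at 1.44 ± 0.203. The orphan and adhesion receptors Adgrb3 (78.5 ± 27.1), Gpr158 (36.3 ± 8.24), Adgrl3 (29.7 ± 9.54) and Adgrb1 (27.6 ± 3.31) were among 26 of 31 detected. Of receptor tyrosine kinases 23 of 30 were detected. Per kb of exon Erbb4 stood above all others in every library, without overlap with the second gene. It spans 1075874 bases and had 3.15 CPM per kb of span, and this list was not ranked by span. The next per kb of exon were Epha6 (57.8 ± 13.3), Ephb6 (40.9 ± 7.26), the BDNF receptor Ntrk2 (40.9 ± 4.48), Epha10 (30.6 ± 3.45) and Alk (25.8 ± 8.89). The related Erbb2 and Erbb3 lay under 1 CPM.

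**Figure D4:**
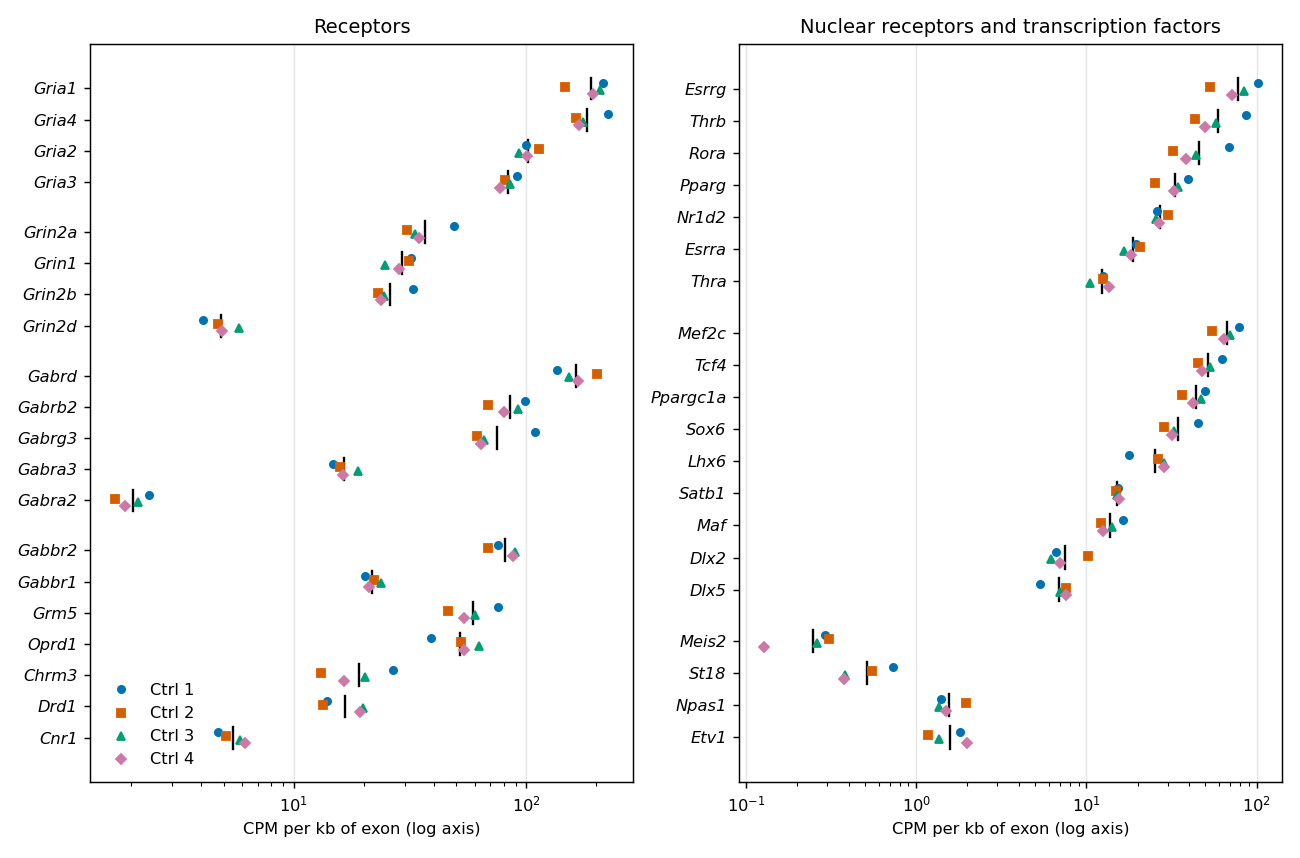
CPM per kb of exon (log axes) of receptor genes (left) and of nuclear receptors and transcription factors (right); points are the 4 Ctrl libraries, ticks their means, and gaps divide groups. Gria1, Gria4 and Gabrd lie highest on the left; on the right, Meis2, St18, Npas1 and Etv1, shown as low genes, lie below 2.1 in every library.

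Nuclear receptors, transcription factors and coactivators were detected for 64 of 85 countable genes (75.3%). Esrrg, an orphan receptor tied to mitochondrial gene expression, had 102, 53.2, 84.7 and 71.9 CPM per kb, its relative Esrra 19.6, 20.8, 16.6 and 18.4, and their coactivator Ppargc1a (PGC-1alpha), which is known to be needed for the Pv phenotype, 49.5, 36.7, 47.4 and 42.5. Thrb (chr14:17660261.0-18038090.0), the thyroid hormone receptor beta gene, had 86.6, 43.2, 57.6 and 49.9 CPM per kb and Thra (chr11:98740638.0-98769006.0) 12.5, 12.5, 10.5 and 13.6. Thrb was higher in all 4 libraries with no overlap, though Thrb spans far more intron and the 2 genes had 1.16 and 1.997 CPM per kb of span, the reverse order. Rora (45.7 ± 15.9), Pparg (33.1 ± 5.84), Nr1d2 (27.1 ± 2.09) and Nr3c2 (20.7 ± 6.94) were also high. Of 48 nuclear receptor genes, 15 were under 1 CPM, Ppara, Vdr and Nr2f2 among them.

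Mef2c (78.8, 54.4, 69.5 and 64.2) and Tcf4 (62.3, 44.97, 52.999 and 48.1) led the transcription factors known from interneurons, and Mef2c was higher in each library. The determinants of the medial ganglionic lineage were present: Sox6 had 45.4, 28.7, 32.5 and 31.7, Lhx6 17.8, 26.2, 28.6 and 28.6 and Satb1 15.4, 14.9, 15.05 and 15.5 CPM per kb. Ctrl 1 was the highest library for Sox6 and the lowest for Lhx6. Maf had 13.8 ± 1.98, Dlx2 7.53 ± 1.86 and Dlx5 6.87 ± 1.07, whereas Dlx1 and Dlx6 were not countable. Nkx2-1, which acts early in this lineage, was at 0.0818, 0, 0 and 0 CPM, and Lhx8 at 0, 0, 0.0797 and 0 CPM. Of 17 countable homeobox genes of other lineages 16 were under 1 CPM, such as Pax6, Otx2, En1 and Isl1, and Lmx1a was at 1.49 CPM. Neuronal RNA-binding proteins were all detected (20 of 20). Per kb of exon Rbfox1 led with 544, 259, 273 and 258 CPM, followed by Elavl2 (63.8 ± 7.804), Khdrbs3 (40.9 ± 4.71) and Elavl3 (38.9 ± 4.03). Rbfox1 spans 1526172 bases and had 0.961 CPM per kb of span, and this list was not ranked by span. Ctrl 1 was the highest library for Rbfox1 by a wide margin.

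Of immediate early genes, which activity induces, 17 of 22 were detected. Fos had 10.1, 4.54, 6.49 and 6.07 CPM, Npas4 3.68, 2.23, 1.79 and 1.54 and Arc 9.82, 12.3, 14.7 and 4.22, with the lowest Arc library in Ctrl 4. Vgf, which encodes a secreted peptide precursor, was the highest of the list at 21.4, 38.5, 46.9 and 27.8 CPM per kb and its libraries spread widely. All 17 countable clock genes were detected, among them Clock (12.9 ± 1.05), Arntl (9.97 ± 1.26), Per2 (10.1 ± 1.49) and Dbp (6.13 ± 1.35). Of the genes that act in thyroid hormone signalling, 20 of 27 countable ones were detected, with a summed level of 2627 to 2783 CPM. Besides the receptors, the corepressor enzyme Hdac3 had 109 ± 17.7 CPM per kb, the transporter subunit Slc3a2 54.6 ± 6.26, the coactivators Ncoa1 36.5 ± 1.41 and Ncoa3 24.8 ± 2.37, the transporter Slc7a8 27.8 ± 3.77 and the corepressor Ncor1 18.7 ± 1.97. The response genes Klf9 and Hr had 7.78 ± 0.537 and 2.04 ± 0.209 CPM per kb. The deiodinases Dio1, Dio2 and Dio3 were at 0, 0.4902 and 0 CPM.

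The perineuronal net list held 19 detected genes of 23 countable ones. Bcan, the gene of brevican (155, 195, 160.4 and 173 CPM per kb), the matrix protein gene Crtac1 (107, 129, 137 and 139.6) and the link protein gene Hapln4 (54.3, 81.5, 81.6 and 88.2) were highest, in that order and without overlap. Tnr had 25.9 ± 4.74, Hapln1 8.97 ± 0.703 and Acan, the gene of aggrecan and the best known net component, 8.41 ± 0.7099. Of vesicle and release genes 47 of 52 countable ones were detected. Syt1 (222 ± 45.9) was higher than Syt2 (57.5 ± 12.6) in each library, and Cplx1 (278 ± 38.7) was far above Cplx2 (1.12 ± 0.265) and Cplx3 (0.189 CPM). Snap25 had 146, 145, 156 and 159 and Sv2a 133 ± 19.6 CPM per kb. Besides Gad1 and Gad2, GABA handling was represented by the degrading enzyme Abat at 33.4 ± 4.48 and the vesicular transporter Slc32a1 at 18.9 ± 2.22. The glial GABA transporters Slc6a11, Slc6a12 and Slc6a13 were at 2.06, 0.366 and 0.173 CPM.

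Of the sodium pump list 6 of 9 countable genes were detected, and 2 were under 1 CPM. The sodium pump beta subunit Atp1b1 had 381, 465, 446 and 465 CPM per kb, lowest in Ctrl 1. The respiratory chain list also holds other genes of energy supply, the creatine kinase Ckb and the carrier Slc25a4 among them. All its 39 countable genes were detected, with a summed level of 4747, 6136, 5616 and 5689 CPM. Their median was 51.4 CPM per kb, against 8.23 for all detected coding genes. Ckb (267 ± 45.7), Atp5b (136 ± 26.9), Slc25a4 (131 ± 14.5) and Cox8a (120.3 ± 18.6) led the list. Calm2 (157 ± 4.54) and the calcium pump Atp2a2 (126 ± 29.9) were above Pvalb in mean level among calcium-handling genes, the latter with overlapping ranges. The levels of Calm2 and of other genes with processed copies in the genome are uncertain where reads fit more than 1 copy. Neuropeptide genes were led by Nxph1 (154 ± 40.8), a neurexin ligand, Chgb (93.2 ± 4.69), Npy (91.9 ± 25.02), Fam19a2 (83.7 ± 18.7) and Scg2 (82.4 ± 12.3). Tac1, a peptide gene of part of the Pv cells, was at 30.5 ± 3.95, and Crh, Pdyn and Nts were under 1 CPM.

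All 59 countable genes of the cell adhesion and axon guidance list were detected, and their summed level was 37700, 22042, 23867 and 22213 CPM. Ctrl 1 was the highest library there, as it was for each of Pcdh9 (344, 193, 198 and 179 CPM per kb), Cntn5 (317, 183, 212 and 184) and Cntnap2 (276, 138, 155 and 139). Cytoskeletal genes were detected for 25 of 27 countable members, and their sum was close between libraries, at 6682 to 7013 CPM. After Stmn3 the highest were the tubulin gene Tubb2a (92.4 ± 14.7), the actin gene Actb (86.8 ± 12.7), the spectrin gene Sptan1 (60.2 ± 5.104) and the internexin gene Ina (56.3 ± 6.75). Of 26 kinases and phosphatases of neuronal activity 24 were detected, led by Cdk5 (65.6 ± 7.47), Prkcb (62.1 ± 6.198) and the calcineurin subunit Ppp3ca (52.2 ± 9.09). Of 21 countable noncoding or host RNAs 19 were detected, and beyond the 4 leaders these were lower, with Snhg14 at 49.3 ± 10.3 and the X-linked Firre at 31.1 ± 4.35 CPM per kb. Of 37 calcium-binding and store proteins 29 were detected, and of 24 genes of GABA and glutamate handling 19.

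In 23 of 30 channel and receptor families, the member with the highest mean CPM per kb of exon was also the highest in each of the 4 libraries. The leader depends on the measure of length, and lists outside these 30 families were not ranked by span. It was the same by exon and by span in 14 of 30 families, and by exon, span and CPM in 9 of 30. Among the 9 were those led by Scn1a, Cacna1a, Kcnk1, Grm5, Drd1, Glrb and Adcyap1r1. By span, Kcns1 led in place of Kcns3, Kcnd1 of Kcnd2, Kcnt1 of Kcnma1 and Kcnj9 of Kcnj3, and Kcnh7 did not lead. Likewise Grin1 led by span in place of Grin2a, Chrm4 of Chrm3, Adrb1 of Adra1a and Oprl1 of Oprd1.

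A comparison of the libraries in pairs, made to find any library deposited more than once, found none: the chi-square per degree of freedom ran from 10.9 (Ctrl 3 and 4) to 68.6 (Ctrl 1 and 2). Spearman correlations over the 13727 detected genes were 0.977 to 0.992. The common biological coefficient of variation by edgeR was 20.3%. The spread of a gene went with its level. The median CV was 26.8% at 1 to 5 CPM, 11.8% at 100 to 300 CPM and 21.5% at 1000 CPM or more, where counting noise alone gives 11.9, 1.65 and 0.542%. At 20 CPM or more, 13 of 8124 genes (0.160%) had a CV over 50%.

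Gene length ordered the differences between the libraries. Genes that span more than 100 kb held 40.1, 29.8, 33.3 and 32.0% of the counts, and genes over 300 kb held 20.1, 12.3, 14.3 and 13.4%. Among 425 protein-coding genes over 300 kb with at least 20 CPM, Ctrl 1 was the highest library for 381 (89.6%) and Ctrl 2 the lowest for 312 (73.4%). Among 1106 genes of at most 10 kb, Ctrl 1 was the lowest for 730 (66.0%) and Ctrl 2 the highest for 694 (62.7%). The median ratio to the mean of the other 3 libraries ran in Ctrl 1 from 0.813 for the shortest genes to 1.42 for the longest, in Ctrl 2 from 1.19 down to 0.766. In the longest class Ctrl 3 and Ctrl 4 stood at 0.972 and 0.894. The first principal component of log2 CPM took 60.3% of the variance and set Ctrl 1 (score 23.4) apart from Ctrl 2 (-13.4), Ctrl 3 (-3.06) and Ctrl 4 (-6.94). Its gene loadings correlated with span at a Spearman rho of 0.590 across 7820 genes, which are not independent. The part that RNA quality, nuclear isolation or the animals have in this was not tested.

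**Figure D5:**
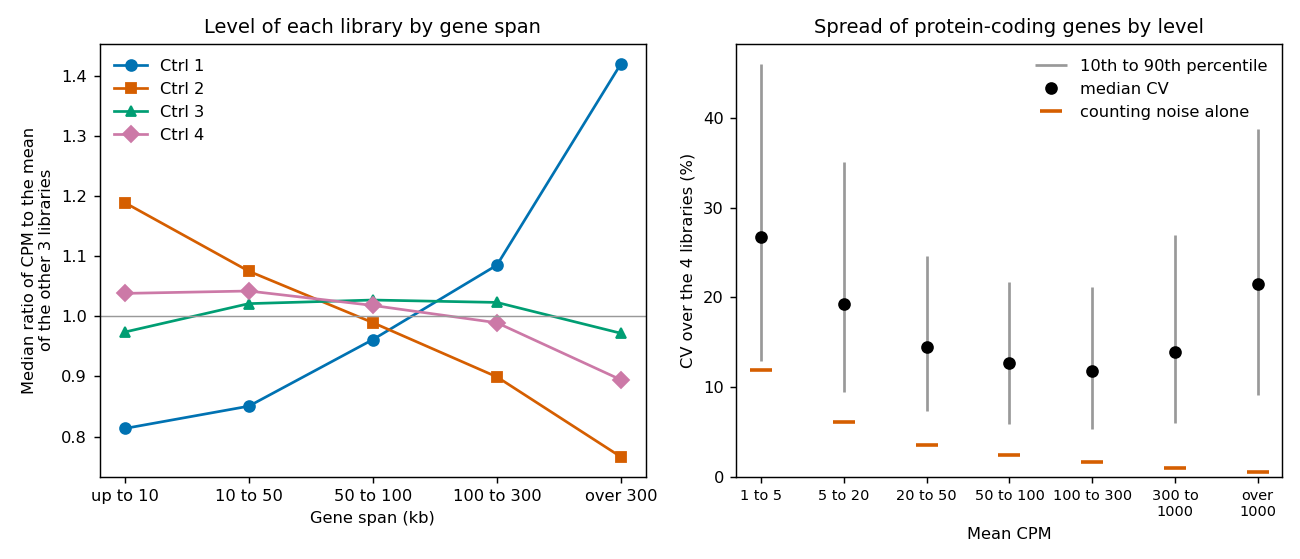
Left, the median over protein-coding genes of at least 20 CPM of a library's CPM divided by the mean of the other 3, by gene span; Ctrl 1 rises from 0.813 to 1.42 and Ctrl 2 falls from 1.19 to 0.766. Right, the CV over the 4 libraries by mean CPM for detected protein-coding genes (points, medians; lines, 10th to 90th percentile; dashes, the CV from counting noise alone), lowest at 100 to 300 CPM.

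The genes with the widest spread were mostly long ones. Fam19a1 (CV 79.7%) had 73.1, 15.8, 27.2 and 18.3 CPM, Kcnip4 (65.9%) 1824, 699, 639 and 519.5 CPM and Lrrtm4 (56.1%) 1186, 508, 459 and 428 CPM, each highest in Ctrl 1. The transcription factor Creb5, the sorting receptor Sorcs1, Epha3, the neuregulin Nrg1, Pdzrn3 (15.3% of exonic bases countable), Cadps2, Ncam2, Kcnb2 and Sgcz had CVs of 48.7 to 62.3% and were likewise highest in Ctrl 1. Zfp729a, a zinc finger gene with a span of 25029 bases, differed from these, with 10.2, 12.5, 31.2 and 26.4 CPM. The Y-linked genes Eif2s3y and Uty had 0, 207, 0 and 0 and 1.43, 119.9, 1.195 and 1.18 CPM, and the 8 Y-linked genes listed summed to 4.13, 448, 4.62 and 3.66 CPM, so that Y-linked RNA was high in Ctrl 2 alone and the libraries are not even in it. At the other end, Glrx (35.4, 35.2, 35.5 and 35.4 CPM), Blvra (49.3, 49.02, 49.2 and 49.6) and Rbm33 (147, 148, 148 and 149) varied least of 7821 protein-coding genes, with CVs of 0.2902, 0.462 and 0.559%. Lcmt1, Srpk2, Armcx1, Parn, Sppl3, Zfp846 and Rnf130 had CVs of 0.799 to 1.23%. Counting noise alone gives a median CV of 3.49% at 20 to 50 CPM and 2.41% at 50 to 100 CPM. It gives 1.65% at 100 to 300 CPM and 0.990% at 300 to 1000 CPM. The CVs of these least variable genes lie below the value for their level, so they are no measure of stable expression. Without Ctrl 1 the count of genes with a CV over 50% fell from 13 to 6, the biological coefficient of variation was 17.3% and the long genes held 31.7% of the counts.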

How the data were processed

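The deposited values are raw counts per gene symbol, made by the authors with Bowtie2 2.5.3 and HTSeq on the mm10 build, according to the submitters' processing notes. The libraries were SMART-Seq v4 and Nextera XT preparations of nuclear RNA read as single 75-base reads, per the labels' protocols. For the counting mode, strand setting and annotation release no value is given in the sources used here, and the counting over gene spans described in the report was inferred from the values. Without strand, a gene and an antisense partner cannot be told apart. Library totals were 24447711, 23786090, 25102472 and 25377904 counts. Only the 4 Ctrl libraries were used; the 11 other libraries were not analysed here.

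Counts were divided by the library total (CPM), and by union exon length of the annotation (GENCODE M21) where genes are compared; 46867 of 48321 symbols had a position, 573 through older names. Positions and promoters are on GRCm38. The dispersion was estimated with edgeR 4.0.16 (R 4.3.3) after TMM scaling; other steps used pandas 2.3.3, numpy 2.4.6 and scipy 1.17.1. Another scaling, length measure, filter and the omission of each library were tried.

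Named are the 20 genes with the highest CPM, the 20 with the highest CPM per kb, the highest members of each of 64 gene lists with examples of members under 1 CPM, the 5 sort markers, and the 15 most and 10 least variable protein-coding genes at 20 CPM or more, predicted gene models left out of the last. Further list members named for their known roles were chosen after their values were seen. The members and lists were chosen with earlier results of these data known. Some genes that this rule would name are not reported here.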

Additional observations from a re-analysis of the deposited data

Results flagged for a closer look

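Dixon's test was applied to 392 genes and gene lists. In 59, the gap of 1 library from the other 3 exceeded the 95% critical value for 4 samples. Chance gives about 1 in 20 for independent items not chosen by their spread, and that rate cannot be applied here. Some genes were named for their high or low spread over these same libraries. The lists hold genes that were also tested singly, and for genes with hardly any counts a few reads decide the result. The 59 are therefore a description and no measure of an excess over chance. In 36 of the 59 Ctrl 1 was the high library and in 7 the low one. Values below are CPM of the library that stood apart.

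Ctrl 1 was high for adhesion and synaptic genes: Nrxn3 at 4223 (others 2011 to 2189), Lsamp at 3987 (others 1919.9 to 2149.7), Cntnap2 at 2829 (others 1415 to 1584), Opcml at 2284 (others 1309 to 1363) and Pcdh9 at 2337 (others 1212 to 1339.6). Lrrc4c stood at 2550 there. The same held for Erbb4 at 4990 and its ligand gene Nrg3 at 2538, and for Nxph1 (1020), Rbfox1 (2391), Adgrb3 (2212), Lrrtm4 (1186), Fam19a2 (523) and Sgcz (410.1). Among channels and receptors it held for Kcnip4 (1824), Kcnh7 (1331), Kcnq3 (557), Kcnq5 (264), Kcnb2 (104), Kcnd3 (13.9), Cacna1d (505), Gabrg3 (1302), Grik2 (1007) and Grin2b (805). The summed lists with Ctrl 1 high were cell adhesion and axon guidance (37700), receptor tyrosine kinases (8996), orphan and adhesion receptors (4586), Kv auxiliary subunits (4443), neuropeptide genes (2529), calcium channel alpha1 subunits (2178), NMDA receptor subunits (2033), the EAG, ERG and ELK channels (1604) and calcium channel auxiliary subunits (1006).

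Ctrl 1 was low for the sodium pump list (2737, others 3735 to 3820.5), for Cplx1 at 481 (others 644 to 656) and Atp5b at 407 (others 613 to 653), and for Ina (150.0), Tubb2a (114), Chgb (236) and Armcx1 (72.3). Ctrl 2 stood apart upward for the Y-linked genes (448 summed; Eif2s3y 207, Uty 119.9), for Aqp4 at 3.32 (others 0.695 to 0.916) and for Sptan1 at 906 (others 755 to 779.6), and downward for Prkcb at 405 (others 489.9 to 506) and Glrx at 35.2 (others 35.4 to 35.5). The gaps of Glrx and Armcx1 are not beyond counting noise. Their CVs were 0.290 and 0.988%, where counting alone gives a median of 3.49% at 20 to 50 CPM and 2.41% at 50 to 100 CPM. For genes near 0, the library that stood apart rests on few counts: Drd5 (0.859), Gabrp (0), Gabrq (0.0398), Htr3a (0.118), Isl1 (0.0394), Kcna10 (0.236), Kcnj5 (0), Lhx8 (0.0797), Nkx2-1 (0.0818), Nts (0.0398), Slc6a13 (0.614) and Vdr (0.985).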

How the results depend on the processing

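The number of detected genes (13727) was 13736 to 15056 with another scaling, another threshold or 1 library left out. The summed Pv markers (3417 CPM) were 3281 to 3655 CPM with TMM scaling, without Pvalb or with 1 library left out. The number of families led by 1 member in all libraries used (23 of 30) was 21 to 26 with other length measures, without genes that share exons or with 1 library left out. The alternative with countable exonic length was chosen after seeing the data. The share of counts in the 100 most abundant genes was 13.66% among protein-coding genes alone. The share in long genes was 50.47% for a limit of 50 kb and 20.57% for 200 kb. The biological coefficient of variation was 25.09% with any gene of at least 1 count and 16.09% at 20 CPM or more. The count of genes with a CV over 50%, 13 at 20 CPM, was 20 with TMM-scaled CPM, 20 with RLE size factors and 75 at 5 CPM or more. It ranged from 6 (without Ctrl 1) to 28 (without Ctrl 4) when 1 library was left out, and was 22 without Ctrl 3. The summed markers of other cells came to 897.1 CPM without the highest member of each list. No paired analysis was possible because there is 1 group and no test between groups. Counting noise has a median of 11.9% of the value at 1 to 5 CPM, and it limits these genes and those near 0 most.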
